A study of Mus musculus with 29 samples.

Results

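Transcripts of 10 genes of the nuclear lamina and the LINC complex (linker of nucleoskeleton and cytoskeleton) were followed by RNA-seq in cardiac fibroblasts of the mouse, over 29 libraries. The genes were listed by name and role, with earlier results of these data known. They were the lamins Lmna, Lmnb1 and Lmnb2, the inner membrane proteins Lbr and Emd, the linkers Sun1, Sun2, Syne1 and Syne2, and Hmgb2, a chromatin protein outside the envelope that is followed with them. All 10 were found among the 55357 genes counted, and all 10 passed the filter on low counts in every fit. Fibroblasts were taken from young (YCF) or aged (ACF) mice and sequenced fresh, with 3 libraries each, or after 48 h of culture. Culture was on DECIPHER substrates, which hold extracellular matrix (ECM) of young (Y) or aged (A) heart in a soft or stiff hydrogel, named SoftY, StiffY, SoftA and StiffA. There were 3 libraries of each cell age on each substrate, except young cells on SoftY, with 2. The sources used here give neither strain nor sex nor age in months, and no genetic change is named for any group.

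The genes lie apart in the genome. In the coordinates of the deposited table (mm39), Lmna is at chr3:88387454-88417264, Lmnb1 at chr18:56840885-56886497, Lmnb2 at chr10:80737037-80754080, Lbr at chr1:181642900-181670612 and Emd at chrX:73298293-73305155. Sun1 is at chr5:139186392-139235596, Sun2 at chr15:79608271-79626738, Syne1 at chr10:4970917-5501483, Syne2 at chr12:75864908-76157701 and Hmgb2 at chr8:57964941-57969034. All 10 are annotated as protein coding, and counts are over whole genes.

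The lamina is a meshwork of intermediate filament proteins under the inner nuclear membrane. Lamins A and C, both from Lmna, are abundant in stiff tissues and bear much of the mechanical load of the nucleus, while the B-type lamins Lmnb1 and Lmnb2 stay bound to the membrane by a farnesyl anchor. SUN proteins cross the inner membrane and hold the KASH domains of nesprins (Syne1, Syne2) in the space between the membranes, which couples the lamina to the cytoskeleton. Loss of Lmnb1, Lbr and Hmgb2 is known from cultured cells in senescence, and mutations of LMNA and EMD cause human muscle and heart disease.

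Totals ran from 1192668 to 3275089 counts per library, and the members had between 10 and 2289 counts in a library. Replicates are called biological in the labels but are not tied to single animals, so the p-values rest on a spread among libraries that may be technical. All 8 fibroblast markers were detected among the fresh and among the cultured libraries of each cell age. Their summed level was 6183 to 7677 CPM (counts scaled to a common library total) in fresh and 19301 to 29226 CPM in cultured libraries. In bulk RNA, fewer cells of a type and less RNA per cell cannot be told apart. Young libraries carried the numbers 1 to 3 and aged ones 4 to 6, so a preparation marked by these numbers cannot be told apart from cell age, and the letter in the library names was A for all fresh libraries and E, F, G or H for the 4 substrates, so a preparation marked by letter cannot be told apart from culture or substrate. Gene counts do not separate lamin A from lamin C, nor the isoforms of the nesprins. Genes that overlap members had at most 4 counts in any library.

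Divided by exon length, levels in fresh young cells spanned a wide range. Lmna was highest at 105.8 ± 6.67 CPM per kilobase (SD, n = 3), followed by Lmnb1 at 42.9 ± 11.4 and Lbr at 42.5 ± 3.22 CPM per kilobase, whose ranges overlapped. Emd was at 21.0 ± 2.53, Hmgb2 at 16.4 ± 1.03, Sun1 at 14.6 ± 0.55 and Lmnb2 at 13.1 ± 0.78 CPM per kilobase. Sun2 at 3.59 ± 0.25 was lower than Sun1 in these libraries, Syne2 was at 3.29 ± 0.36, and the very long Syne1 was lowest at 0.74 ± 0.07 CPM per kilobase.

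In freshly isolated cells, age separated the A-type from the B-type lamins. Lmna rose, while Lmnb1, Lmnb2, Lbr and Hmgb2 fell. These were 5 of the 10 members, where 31.8% of all 11786 genes tested changed, 15.0% higher and 16.8% lower. Their median over the 10 members was -0.14 on the log2 scale, against -0.02 over all genes tested. The remaining members, Emd and the 4 linker genes, did not pass the test.

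Lmna was at 604.8, 661.0 and 586.3 CPM in the 3 fresh young libraries and at 759.1, 791.4 and 773.7 CPM in the 3 fresh aged libraries. Every aged library lay above every young one, and the aged libraries lay close together. The log2 fold change of aged over young was 0.29 ± 0.05 (SE), a 1.22-fold higher level, with an adjusted p of 7.86e-04 by edgeR's quasi-likelihood test with Benjamini-Hochberg adjustment, which was used for all adjusted p-values here.

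Lmnb1 was at 164.5, 119.0 and 98.2 CPM in fresh young and at 39.4, 52.0 and 50.8 CPM in fresh aged cells. The groups did not overlap, and the young libraries were widely spread. Lmnb1 fell by 1.47 ± 0.17 on the log2 scale, 2.76-fold, with an adjusted p of 1.73e-05. Lmnb2 was at 52.6, 56.9 and 59.2 CPM in young and at 17.4, 31.6 and 18.9 CPM in aged cells. One aged library stood above the other aged ones, yet below all young libraries. Lmnb2 fell by 1.35 ± 0.19 on the log2 scale, 2.54-fold, with an adjusted p of 1.05e-04.

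With counts of Lmna set over the summed counts of both B-type lamins, the ratio within a library was 2.79 to 3.76 in fresh young cells (mean 3.42 ± 0.55, SD, n = 3) and 9.46 to 13.4 in fresh aged cells (mean 11.3 ± 1.96). The ranges were far apart. As the ratio is taken within a library it does not depend on scaling to the library total, but it is a ratio of counts and not of molecules, since transcript lengths differ.

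**Figure D1:**
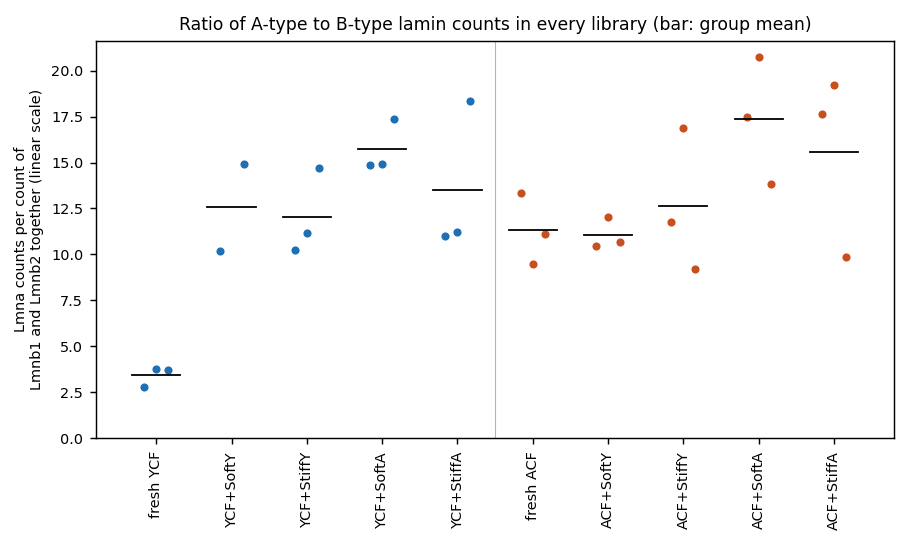
Counts of Lmna over the summed counts of Lmnb1 and Lmnb2 in each of the 29 libraries, by group. The 3 fresh young libraries, at 2.79 to 3.76, lie below all others.

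Lbr, the lamin B receptor, which anchors heterochromatin to the inner membrane and also acts as a sterol reductase, was at 185.8, 205.0 and 216.1 CPM in fresh young and at 143.5, 115.3 and 125.2 CPM in fresh aged cells. The groups did not overlap. Lbr fell by 0.69 ± 0.09 on the log2 scale, 1.62-fold, with an adjusted p of 5.24e-05. Hmgb2, a high mobility group protein that bends DNA, was at 45.8, 51.4 and 50.7 CPM in young and at 23.6, 16.7 and 18.1 CPM in aged cells, again without overlap. It fell by 1.37 ± 0.17 on the log2 scale, 2.59-fold, with an adjusted p of 2.18e-05. Processed copies of Hmgb genes exist in the mouse genome, and the sources used here do not say how reads shared with them were counted.

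Emd, which encodes the LEM domain protein emerin, had an aged over young log2 difference of 0.08 in fresh cells (95% interval -0.23 to 0.39). The interval was -0.24 to 0.13 for Sun1 and -0.48 to 0.47 for Sun2. For the nesprins it was -0.03 to 0.65 for Syne1 and -0.52 to 0.08 for Syne2. Syne1 was at 31.0, 27.1 and 32.4 CPM in young and at 33.6, 41.6 and 39.0 CPM in aged cells, which did not overlap, with an adjusted p of 0.157. Such separation of all libraries is common here, being found for 44.6% of all genes tested.

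**Figure D2:**
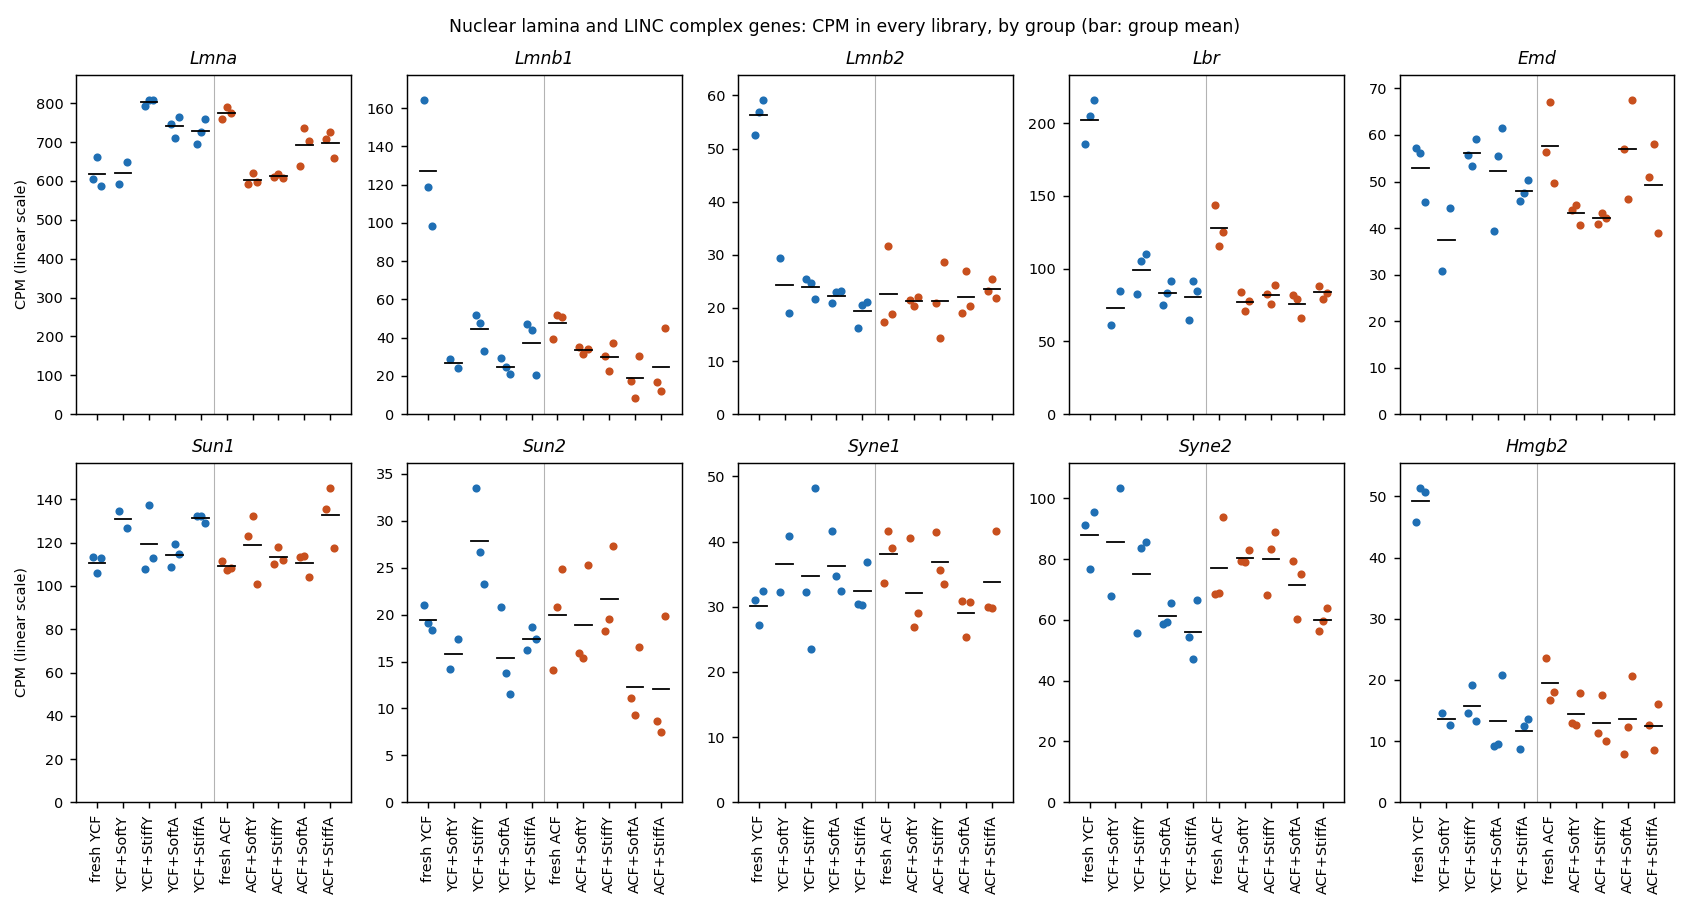
Level of each of the 10 genes in every library (CPM), with the 10 groups along the axis and 1 point per library. Lmnb1, Lmnb2, Lbr and Hmgb2 are highest in the 3 fresh young libraries.

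Other gene groups changed beside these genes in fresh cells. All 24 genes of a proliferation list fell with age, with a median of -1.61 on the log2 scale, and their summed level was 5327 to 5666 CPM in young and 2238 to 2473 CPM in aged cells. Of 26 nuclear pore genes tested, 14 fell and 0 rose, and of 14 tested partners of the lamina at the inner membrane, 4 fell and 0 rose. These 4 were Tmpo, which encodes the lamin-binding LAP2 proteins (-1.31 ± 0.14, adjusted p = 6.65e-06), Nemp1 (-1.55 ± 0.22), Nrm (-1.01 ± 0.36) and Tmem43 (-0.31 ± 0.09). Zmpste24, the protease that matures prelamin A, rose by 0.21 ± 0.07 (adjusted p = 0.0335), 1 of 5 lamin processing enzymes. Of 8 tested genes of a senescence and arrest list, 4 rose and 1 fell, with the cyclin Ccnd1 among those that rose. Of 9 tested myeloid markers 6 rose, with a summed level of 214 to 217 CPM in young and 394 to 436 CPM in aged libraries, while the 6 lymphocyte markers summed to at most 1.03 CPM. Of the 8 fibroblast markers 6 fell and 2 rose (median -0.97), among them Col1a1 at -2.40 ± 0.06, and they summed to 7279 to 7677 CPM in young and 6183 to 6690 CPM in aged libraries. Of 7 tested endothelial markers 1 rose (Cdh5, 0.95 ± 0.14), with sums of 141 to 161 CPM in young and 182 to 193 CPM in aged libraries. Of 2 tested pericyte markers 1 fell (Notch3, -3.70 ± 0.62), with sums of 11.7 to 24.4 CPM in young and 5.91 to 7.91 CPM in aged libraries. The part of any of these in the lamina values was not tested.

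The promoters of genes that fell together are shown with the letters of cell cycle elements, because all 24 proliferation genes fell beside them. In RefSeq sequence of build GRCm38.p6, from 250 bases before to 50 bases after the annotated start, 9 of the 10 members were matched, all but Lmnb1. Motifs searched on both strands were the cell cycle homology region (CHR, TTTGAA), the CCAAT box (CCAAT) and E2F sites (TTTCCCGC, TTTGGCGC, TTTCGCGC and TTTGCCGC). The following are the promoters of Hmgb2 (chr8:57511593-57511892, plus strand), Lbr (chr1:181842352-181842651, minus strand) and Lmnb2 (chr10:80918196-80918495, minus strand, the first of its listed starts), and, as a linker gene that was not called in fresh cells, of Sun2 (chr15:79742487-79742786, minus strand). Capitals mark CHR and CCAAT letters.
Hmgb2: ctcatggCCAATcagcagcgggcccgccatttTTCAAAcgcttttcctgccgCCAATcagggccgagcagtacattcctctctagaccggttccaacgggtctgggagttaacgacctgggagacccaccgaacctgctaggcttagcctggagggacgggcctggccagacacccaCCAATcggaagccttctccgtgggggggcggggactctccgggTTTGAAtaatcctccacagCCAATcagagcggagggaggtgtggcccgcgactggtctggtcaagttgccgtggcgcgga
Lbr: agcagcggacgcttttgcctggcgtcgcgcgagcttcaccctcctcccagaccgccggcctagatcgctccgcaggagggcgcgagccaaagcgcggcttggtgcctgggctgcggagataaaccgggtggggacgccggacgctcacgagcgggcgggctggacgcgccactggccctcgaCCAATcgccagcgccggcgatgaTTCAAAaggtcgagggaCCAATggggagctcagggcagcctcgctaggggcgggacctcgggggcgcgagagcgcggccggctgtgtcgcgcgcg
Lmnb2: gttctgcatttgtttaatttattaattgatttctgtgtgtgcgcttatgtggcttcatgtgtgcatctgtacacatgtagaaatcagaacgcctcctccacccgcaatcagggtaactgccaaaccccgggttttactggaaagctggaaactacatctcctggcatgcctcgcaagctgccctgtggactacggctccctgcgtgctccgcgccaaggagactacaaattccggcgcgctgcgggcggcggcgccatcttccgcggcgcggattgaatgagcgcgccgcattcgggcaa
Sun2: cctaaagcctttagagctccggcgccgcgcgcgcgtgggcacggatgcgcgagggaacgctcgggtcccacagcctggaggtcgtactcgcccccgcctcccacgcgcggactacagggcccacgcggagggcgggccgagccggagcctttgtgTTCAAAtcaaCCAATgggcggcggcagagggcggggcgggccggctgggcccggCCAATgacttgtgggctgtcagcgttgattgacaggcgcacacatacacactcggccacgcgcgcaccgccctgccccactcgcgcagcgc
The Hmgb2 window held 2 CHR and 4 CCAAT matches, the Lbr window 1 and 2, and the Sun2 window 1 and 2. Neither listed Lmnb2 window held any, which says only that these letters are not in these windows. CCAAT letters were also in the listed Sun1 windows (2 and 1), the Emd window (1) and 1 of the Lmna windows (1). Those windows held no CHR letters, and the Syne1 and Syne2 windows held neither. E2F letters were found in 0 of the member windows. Among 32851 promoters of the same length, 17.9% held CHR letters, 37.4% a CCAAT box, 2.26% E2F letters and 6.95% both CHR and CCAAT. A match is a description of sequence and not a measured binding site.

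After 48 h of culture, Lmnb1, Lbr and Hmgb2 were lower than in fresh cells at both ages, and Lmnb2 was lower in young cells. With the 4 substrates weighed equally, Lmnb1, Lmnb2, Lbr, Hmgb2 and Syne2 fell and Lmna rose in young cells, 6 of 10 members, where 56.9% of 13523 genes changed. In aged cells Lmna, Lmnb1, Lbr and Hmgb2 fell, 4 of 10, where 62.4% of all genes changed. The members' shares are near or below these backgrounds. The fresh libraries are the same as in the comparison of fresh ages, so the comparisons share them. Fresh and cultured libraries did not overlap for 36.2% of all genes in young and for 43.6% in aged cells.

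Lmnb1 in young cells was at 20.3 to 52.1 CPM over the 11 cultured libraries (median 29.3), all below the lowest fresh young library at 98.2 CPM. It fell by 1.97 ± 0.23 on the log2 scale in young cells, 3.92-fold, with an adjusted p of 1.07e-08. In the 12 cultured aged libraries it was at 8.48 to 45.0 CPM (median 30.5), overlapping the fresh aged level. There it fell by 0.87 ± 0.26 on the log2 scale, with an adjusted p of 0.00471.

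Lmnb2 was at 16.2 to 29.4 CPM in cultured young (median 21.6) and at 14.3 to 28.7 CPM in cultured aged libraries (median 21.7). All cultured young libraries lay below the fresh young ones, whereas the cultured aged range overlapped that of fresh aged cells. Lmnb2 fell by 1.32 ± 0.15 on the log2 scale in young cells (adjusted p = 7.67e-09). In aged cells the difference was -0.03 (95% interval -0.39 to 0.32, adjusted p = 0.888).

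Lbr was at 61.0 to 109.8 CPM in cultured young (median 84.6) and at 66.1 to 88.5 CPM in cultured aged libraries (median 80.5). At both ages every cultured library lay below every fresh one. Lbr fell by 1.28 ± 0.10 on the log2 scale in young (adjusted p = 1.49e-12) and by 0.69 ± 0.10 in aged cells (adjusted p = 9.24e-07). Hmgb2 was at 8.74 to 20.8 CPM in cultured young (median 13.3) and at 7.93 to 20.7 CPM in cultured aged libraries (median 12.6). Only in young cells did the cultured libraries lie wholly below the fresh ones. Hmgb2 fell by 1.88 ± 0.19 on the log2 scale in young (adjusted p = 8.29e-10) and by 0.52 ± 0.22 in aged cells (adjusted p = 0.0403). The call in aged cells was lost without any 1 of 10 libraries: fresh aged replicates 1 and 3, SoftY 1 and 2, StiffY 1 and 3, SoftA 1 and 2, and StiffA 1 and 2. It was also lost when only the groups compared were fitted (adjusted p = 0.0506). The adjusted p ran up to 0.248, with a log2 difference of -0.36, without fresh aged replicate 1.

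Averaged over the substrates, Lmna moved in opposite directions in the cultures of either age. It was at 591.3 to 808.9 CPM in the 11 cultured young libraries (median 746.1), overlapping the fresh young range, and at 591.9 to 734.9 CPM in the 12 cultured aged libraries (median 629.3), all below the fresh aged ones. As a mean over substrates, it rose by 0.22 ± 0.05 on the log2 scale in young cells (adjusted p = 9.33e-04) and fell by 0.25 ± 0.05 in aged cells (adjusted p = 1.02e-04). The rise in young cells was not seen on SoftY, at a mean of 620.2 CPM against 617.4 CPM in fresh young cells. Means were 803.3 CPM on StiffY, 740.2 CPM on SoftA and 727.5 CPM on StiffA.

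Among the linkers, Syne2, which encodes the large nesprin-2 that reaches actin, was the only one called for cultured over fresh, and only in young cells. It was at 91.2, 76.8 and 95.4 CPM in fresh young and at 47.0 to 103.4 CPM (median 65.5) in cultured young libraries, which overlapped. It fell by 0.36 ± 0.13 on the log2 scale, with an adjusted p of 0.0181. The call was lost without fresh young replicate 1 (adjusted p = 0.111), fresh young replicate 3 (0.134) or SoftY replicate 1 (0.0611), and when only the groups compared were fitted (0.0658). Emd was -0.28 in aged cells (95% interval -0.54 to -0.01, adjusted p = 0.0635) and -0.38 without fresh aged replicate 3 (adjusted p = 0.0328). The interval for Sun1 was -0.05 to 0.29 in aged cells, and its difference in young cells was 0.16 ± 0.08 (adjusted p = 0.0903). Without the cultured libraries numbered 3 and 6, Sun1 differed by 0.19 in young and 0.21 in aged cells, and Sun2 by -0.64 in aged cells. This setting was chosen after values were seen and leaves 1 library of young cells on SoftY, so no p-values are given for it.

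The effect of culture differed between young and aged cells for Lmna, Lmnb1, Lmnb2, Lbr and Hmgb2. This interaction equals the age difference in culture less that in fresh cells. For Lmnb2, Lbr and Hmgb2 the age difference in culture was -0.03, -0.07 and 0.01. Their interactions thus largely restate the fresh age differences of -1.35, -0.69 and -1.37 with the sign turned. For Lmnb1 the age difference was -0.33 in culture and -1.47 in fresh cells, and for Lmna it was -0.15 and 0.29. The interaction of culture with cell age called 5 of 10 members, where 20.6% of all genes were called. The log2 difference in the culture effect, aged minus young, was -0.47 ± 0.08 for Lmna (adjusted p = 1.68e-05), 1.29 ± 0.23 for Lmnb2 (1.02e-04), 0.60 ± 0.15 for Lbr (0.00341) and 1.35 ± 0.30 for Hmgb2 (0.00109). For Lmnb1 it was 1.10 ± 0.36 (adjusted p = 0.0267). That call was lost with DESeq2 (adjusted p = 0.0738), without fresh young replicate 1 (0.0986) and without fresh aged replicate 1 (0.09). It was also lost without the cultured libraries numbered 3 and 6, when the difference was 0.57.

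**Figure D3:**
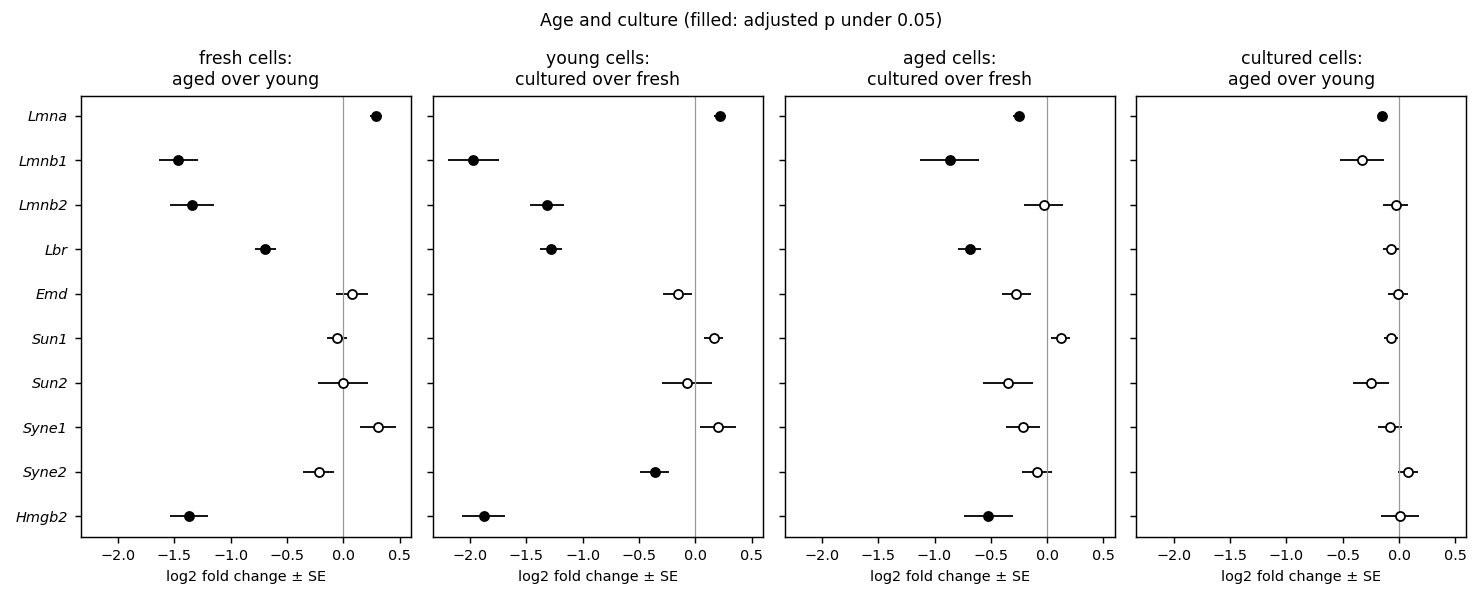
Log2 fold changes ± SE of the 10 genes with age in fresh cells, with culture at each age, and with age in culture, with filled points for an adjusted p under 0.05. Lmnb1, Lmnb2, Lbr and Hmgb2 lie left of 0 for age in fresh cells and for culture in young cells.

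The other lists fell in part with these genes. Of 24 proliferation genes, 24 fell in young cells with culture, while in aged cells 11 rose and 8 fell, and the summed level was 1474 to 2146 CPM in cultured young and 1460 to 1954 CPM in cultured aged libraries. Of 26 nuclear pore genes, 23 fell in young cells, and 21 fell and 1 rose in aged cells. Of 15 tested inner membrane partners, 9 fell and 1 rose in young and 5 fell and 2 rose in aged cells. Banf1, which bridges DNA and LEM domain proteins such as emerin, fell by 1.10 ± 0.08 in young and by 1.13 ± 0.08 in aged cells, and Tmem43 rose by 0.66 ± 0.09 and 0.88 ± 0.09. Zmpste24 fell by 0.35 ± 0.08 in young and by 0.42 ± 0.08 in aged cells. Myeloid markers summed to 23.1 to 68.5 CPM in all cultured libraries, below every fresh one. Of 7 tested endothelial markers 6 fell and 1 rose in young and 5 fell and 1 rose in aged cells, and of 8 fibroblast markers 6 rose and 1 fell in young and 5 rose and 2 fell in aged cells. Their part in the differences was not tested.

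The likeness of profiles over the 10 group means (log2 CPM, genes with a mean of at least 10 CPM) is a description, in which fresh young cells stand apart from the rest. The gene most like Lmnb1 was Chaf1a, a chromatin assembly subunit (Pearson r 0.97). Most like Lmnb2 was Aurkb, a mitotic kinase (r 0.99), most like Lbr was Mcm10, a replication factor (r 0.997), and most like Hmgb2 was Nup85, a nuclear pore subunit (r 0.99). Lmna was most like Wdr1, an actin disassembly cofactor (r 0.95). Between members, r was 0.95 for Lbr with Hmgb2, 0.94 for Lmnb2 with Hmgb2, 0.91 for Lmnb1 with Lbr, and -0.30 for Lmna with Lmnb2.

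**Figure D4:**
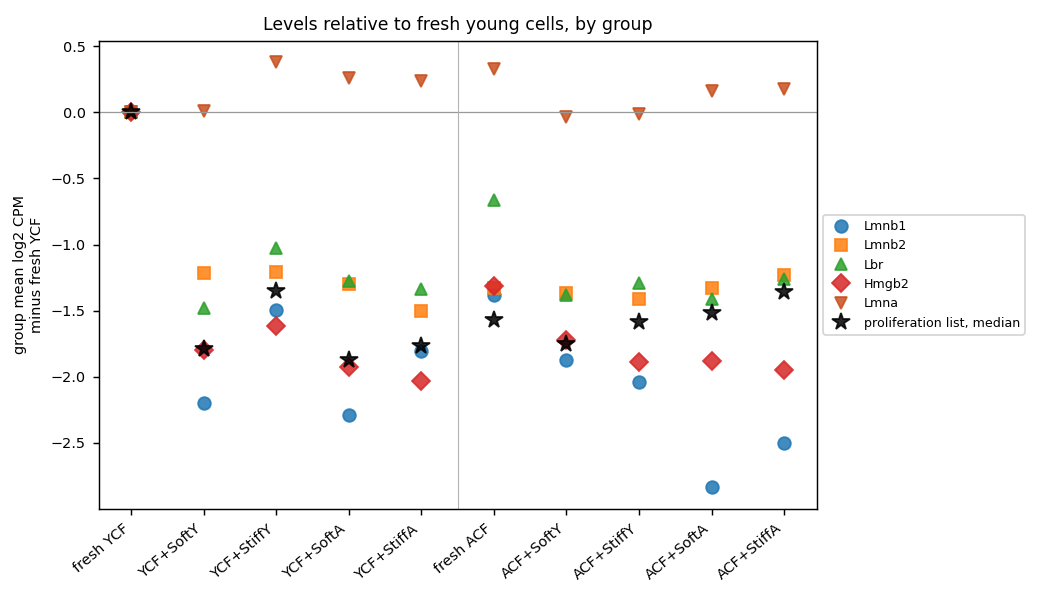
Mean log2 CPM of Lmna, Lmnb1, Lmnb2, Lbr and Hmgb2 in the 10 groups relative to fresh young cells, beside the median of the 24 proliferation genes. Lmnb1, Lmnb2, Lbr and Hmgb2 lie below 0 in every other group, from -0.66 for Lbr in fresh aged cells to -2.84 for Lmnb1 in aged cells on SoftA.

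Among cultured cells, aged over young, Lmna was the one member that passed the test, 1 of 10, where 15.0% of 12841 genes were called. Lmna fell by 0.15 ± 0.04 on the log2 scale in aged over young cells (adjusted p = 0.0048), with overlapping ranges. Without the cultured libraries numbered 3 and 6 the call was lost and the difference was -0.09. Lmnb1 differed by -0.33 (95% interval -0.74 to 0.08, adjusted p = 0.289), and by -0.49 without aged StiffA replicate 3 (0.0472). Sun2 differed by -0.25 ± 0.16 (adjusted p = 0.325). Without the libraries numbered 3 and 6, left out after their values were seen, Lmnb1 differed by -0.87 and Sun2 by -0.58. Intervals were -0.26 to 0.20 for Lmnb2, -0.22 to 0.08 for Lbr and -0.34 to 0.35 for Hmgb2, and the ratio of Lmna to B-type lamins had group means from 11.1 to 17.4 in culture. In the same comparison 6 of 7 tested endothelial markers rose (median 1.13) and 6 of 8 fibroblast markers fell (median -0.27). Endothelial markers summed to 65.7 to 123.6 CPM in young and 90.1 to 181.7 CPM in aged, and fibroblast markers to 20440 to 29226 CPM in young and 19301 to 23748 CPM in aged cultured libraries, and their part in the Lmna difference was not tested.

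The libraries numbered 6, replicate 3 of the aged cultures, had the highest Sun2 on all 4 substrates and the highest Lmnb1 on 3 of them. Sun2 in aged cells was 25.3, 27.3, 16.5 and 19.9 CPM in replicate 3 on SoftY, StiffY, SoftA and StiffA, each the highest of its group. The fresh aged library numbered 6 was also the highest of its group for Sun2, at 24.8 CPM, but not for Lmnb1, at 50.8 CPM. Lmnb1 was 37.3, 30.4 and 45.0 CPM in replicate 3 on StiffY, SoftA and StiffA, again each the highest, while on SoftY it was 34.0 CPM, between 31.2 and 34.9 CPM in the other libraries. In young cells the library numbered 3 was the lowest for Lmnb1 on StiffY, SoftA and StiffA, at 33.3, 20.8 and 20.3 CPM. The library numbered 3 was also the lowest on SoftY (titled replicate 2), at 24.3 CPM, and in fresh young cells, at 98.2 CPM. The setting without the libraries numbered 3 and 6 was chosen after these values were seen, and it leaves 1 library of young cells on SoftY. Leaving out high aged and low young libraries lowers aged over young Lmnb1 by construction, as leaving out the highest aged libraries does for Sun2. Differences in that setting thus follow in part from the choice, and are given without p-values.

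Stiffness gave no member call in the main fits. In young cells 0 of 10 members passed edgeR's test for stiff over soft, where 3.56% of all genes did, with 3 members at an unadjusted p under 0.05 and 0 called by DESeq2. In aged cells 0 of 10 passed, where 0.296% of all genes did, with 0 at an unadjusted p under 0.05 and 0 by DESeq2. Lmna in young cells was at 591.3 and 649.1 CPM on SoftY, 793.2, 808.9 and 807.7 CPM on StiffY, 746.1, 711.3 and 763.2 CPM on SoftA and 696.0, 725.9 and 760.5 CPM on StiffA. StiffY was thus highest and SoftY lowest, without overlap between them, while the substrates of aged matrix overlapped. Averaged over both matrices the stiff over soft log2 difference was 0.17 ± 0.05 (adjusted p = 0.0689), and 0.21 without the libraries numbered 3 and 6. With library number as a block in the model, Lmna was called at 0.18 (0.0486). The interaction of stiffness with matrix was -0.41 ± 0.11 (95% interval -0.63 to -0.19, adjusted p = 0.0735).

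In aged cells Lmna was at 591.9 to 734.9 CPM on soft and at 608.4 to 725.1 CPM on stiff substrates, and the stiff over soft interval was -0.08 to 0.12. Lmnb1 in young cells was at 20.8 to 29.3 CPM on soft and at 20.3 to 52.1 CPM on stiff substrates (medians 24.6 and 45.6). Its log2 difference was 0.67 ± 0.28 (adjusted p = 0.233), and 0.80 without the libraries numbered 3 and 6. It was called with no filter on low counts (0.68, adjusted p = 0.00266). Replicate number as a block in the model also called it (0.76, 0.0103), as did library number (0.61, 0.0437). Sun2 in young cells was at 11.6 to 20.8 CPM on soft and at 16.2 to 33.5 CPM on stiff substrates, with a log2 difference of 0.52 ± 0.23 (adjusted p = 0.251).

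In aged cells, Lmna rose and Sun2 fell on aged over young matrix, 2 of 10 members, where 7.44% of all genes changed. In the same comparison 4 of 7 tested endothelial markers rose (median 0.88), with sums of 90.1 to 126.5 CPM on young and 134.5 to 181.7 CPM on aged matrix. Of 8 fibroblast markers 2 rose and 3 fell, with sums of 20399 to 22125 CPM on young and 19301 to 23748 CPM on aged matrix. The part of either in the member values was not tested. Lmna in aged cells was at 591.9, 620.2 and 596.8 CPM on SoftY and at 608.8, 617.5 and 608.4 CPM on StiffY, against 638.4, 734.9 and 702.2 CPM on SoftA and 708.7, 725.1 and 659.8 CPM on StiffA. All 6 libraries on aged matrix lay above all 6 on young matrix. How many of all genes separate in this way was not counted for this comparison. Lmna rose by 0.21 ± 0.05 on the log2 scale (adjusted p = 0.011). The call was lost without SoftA replicate 2 (0.17, adjusted p = 0.0661) and with no filter on low counts (adjusted p = 0.0625).

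Sun2, the SUN protein measured here at the lower level, was at 16.0, 15.3 and 25.3 CPM on SoftY and at 18.3, 19.5 and 27.3 CPM on StiffY. On aged matrix it was at 11.1, 9.25 and 16.5 CPM on SoftA and at 8.68, 7.54 and 19.9 CPM on StiffA. The ranges overlapped through replicate 3. Sun2 fell by 0.74 ± 0.22 on the log2 scale (adjusted p = 0.036). The call was lost without any 1 of 6 libraries, namely SoftY replicate 3, StiffY replicate 3, SoftA replicates 1 and 2, and StiffA replicates 1 and 2, with adjusted p-values up to 0.134.

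Lmnb1 in aged cells was at 22.4 to 37.3 CPM on young matrix and at 8.48 to 45.0 CPM on aged matrix (medians 32.6 and 17.2), with a log2 difference of -0.56 ± 0.28 (adjusted p = 0.228). Without StiffA replicate 3 it was -0.91 (adjusted p = 0.0193), and without the libraries numbered 3 and 6 it was -1.17. Lmnb1 was also called with no filter on low counts (-0.57, adjusted p = 0.00867) and with replicate number as a block (-0.64, 0.0165). Emd was at 40.7 to 44.9 CPM on young and at 38.8 to 67.6 CPM on aged matrix, with a difference of 0.33 ± 0.12 (adjusted p = 0.105), and 0.40 without StiffA replicate 3 (0.0404).

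In young cells 0 of 10 members passed edgeR's test for aged over young matrix, where 2.49% of all genes did, with 1 at an unadjusted p under 0.05 and 1 called by DESeq2. That member was Syne2, at 55.7 to 103.4 CPM on young and at 47.0 to 66.4 CPM on aged matrix. Its log2 difference was -0.44 ± 0.13 (adjusted p = 0.0625, and 0.0444 with DESeq2). It was called without SoftY replicate 1 (-0.58, adjusted p = 0.0201), StiffY replicate 1 (-0.55, 0.0157) or StiffA replicate 3 (-0.51, 0.0375). The interval for Lmna in young cells was -0.06 to 0.16. Whether the response to matrix differed with cell age was tested as an interaction, and 0 of 10 members were called, where 0.0935% of all genes were, with 1 at an unadjusted p under 0.05 and 0 by DESeq2. For Lmna that interaction was 0.15 ± 0.07 (adjusted p = 0.671), and for Sun2 it was -0.37 ± 0.32 (adjusted p = 0.827).

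**Figure D5:**
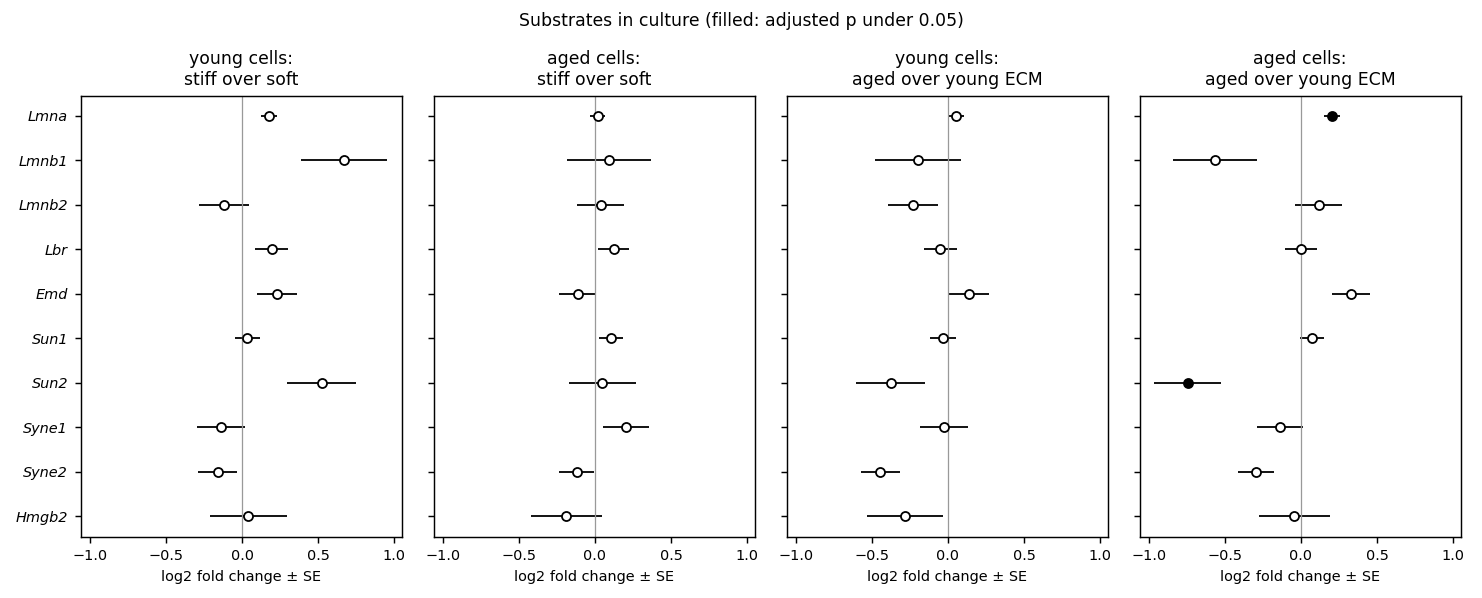
Log2 fold changes ± SE of the 10 genes for stiff over soft and for aged over young matrix at each cell age, with filled points for an adjusted p under 0.05. Lmna and Sun2 in aged cells, at 0.21 and -0.74 for aged over young matrix, are the filled points.

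With both properties changed at once, StiffA over SoftY called 0 of 10 members in young cells, where 5.26% of all genes were called, with 2 at an unadjusted p under 0.05 and 1 by DESeq2. It called 0 of 10 in aged cells, where 4.21% were, with 3 at an unadjusted p under 0.05 and 0 by DESeq2. Syne2 in young cells was at 68.0 and 103.4 CPM on SoftY and at 54.5, 47.0 and 66.4 CPM on StiffA, which did not overlap. Its difference was -0.60 ± 0.18 (adjusted p = 0.0524, and 0.0492 with DESeq2), and it was called without SoftY replicate 1 (-0.89, 0.0148) or StiffA replicate 3 (-0.74, 0.0329). In aged cells Lmna differed by 0.22 ± 0.07 (adjusted p = 0.0796) and Sun2 by -0.70 ± 0.31 (adjusted p = 0.248), or by -1.20 without StiffA replicate 3 (0.024). Lmnb1 differed by -0.47 ± 0.38 (adjusted p = 0.585), and by -1.18 without the libraries numbered 3 and 6. The interactions of stiffness with matrix called 0 of 10 members at either age by edgeR, where 0.615% of all genes were called in young and 0.0234% in aged cells, with 3 and 1 members at an unadjusted p under 0.05 and 1 (Lmna in young cells) and 0 by DESeq2. The interaction of cell age with stiffness called 0 of 10, where 0.787% were called, with 1 at an unadjusted p under 0.05 and 0 by DESeq2.

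In order of level, fresh young cells came first for Lmnb1, Lmnb2, Lbr and Hmgb2, with no overlap with the group next in order. Fresh aged cells came next for Lbr, above all cultured groups without overlap, and the cultured groups overlapped their neighbours for each of these 4 genes. Lmna was highest in young cells on StiffY at 803.3 ± 8.71 CPM, above fresh aged cells at 774.7 ± 16.2 CPM without overlap, and lowest in aged cells on SoftY at 603.0 ± 15.1 CPM. For Sun1, from 109.1 CPM in fresh aged to 132.8 CPM in aged cells on StiffA, all neighbours in the order overlapped.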

How the data were processed

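RNA was counted in 29 libraries of mouse cardiac fibroblasts in 10 groups. The table the authors deposited holds raw counts of 55357 genes. The submitters' processing notes name STAR 2.7.8a and mm39. The sources used here do not give the counting settings or the use of strand. Totals of 1192668 to 3275089 counts set the precision.

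From these counts, edgeR 4.0.16 in R 4.3.3 was run with a filter by group (filterByExpr), TMM scaling and quasi-likelihood F tests, and p-values were adjusted by Benjamini-Hochberg over all genes of a fit. Fresh libraries (11786 genes), the 23 cultured libraries (12841 genes) and all 29 (13523 genes) were fitted apart. SE was taken as the size of the log2 fold change divided by the root of F. Calls are at an adjusted p under 0.05. CPM are counts over TMM-scaled totals of all 29 libraries, and a prior count of 2 was added for log2 CPM. Levels per kilobase used exon lengths of GENCODE M21 (GRCm38). The fits were also run on simulated counts drawn independently for each library with the fitted dispersions, and the outcome is not given here. Such counts cannot probe a spread shared by libraries of the same number.

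All 10 members were described. Genes named beside them were taken from the up to 4 called genes of smallest p in each of 12 lists and from the 3 genes with the highest Pearson r to a member over group means, and not all of these are printed. Members and lists were chosen with earlier results of these data known. Alternatives were other size factors (RLE), no filter, DESeq2 1.42.0, replicate blocks, each library left out, and only the groups compared. Leaving out the cultured libraries numbered 3 and 6 was added after seeing the data.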

Additional observations from a re-analysis of the deposited data

Results flagged for a closer look

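For 5 of the 10 genes the effect of culture differed between aged and young cells by a test of the difference itself, edgeR's interaction of culture with cell age. Of all 13523 genes tested, 20.6% were called in the same test. As differences of log2 fold changes, aged minus young, the values were -0.47 for Lmna, 1.10 for Lmnb1, 1.29 for Lmnb2, 0.60 for Lbr and 1.35 for Hmgb2. All 24 proliferation genes were called in the same test, with a median of 1.63, and 7 of 9 tested myeloid markers were called lower, with a median of -2.17. The part of either in the member values was not tested. These interactions use the same fresh libraries as the comparison of fresh ages, and for Lmnb2, Lbr and Hmgb2 they largely restate it. Those of Lmnb1 and Lmna also hold the fresh difference. Aged over young, Lmnb1 was -1.47 in fresh cells and -0.33 in culture, and Lmna was 0.29 and -0.15.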

How the results depend on the processing

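Of 150 pairs of member and comparison, 23 were called, 17 of these kept the call under every alternative run and 6 lost it under at least 1. Of the 127 uncalled, 19 were called under at least 1 alternative, and 0 called values changed sign. All 5 calls in fresh ageing held under 11 alternatives. RLE moved the median of all genes by at most 0.02 (log2). Counts of called genes that moved by over 1.5 times were as follows, and the cause was not tested. Without libraries numbered 3 and 6, age in culture called 3068 genes (1928 in the main fit), StiffA over SoftY in aged cells 1012 (541), stiffness by matrix 331 in young (79) and 19 in aged cells (3), and cell age by stiffness 165 (101) and by matrix 223 (12). With only the groups compared, young cells gave 267 for stiffness (457), 158 for matrix (320), 301 for StiffA over SoftY (676) and 33 for stiffness by matrix, and aged cells gave 899 for StiffA over SoftY and 5 for stiffness by matrix. With the replicate block, aged cells gave 1492 for matrix (956), 861 for StiffA over SoftY and 5 for stiffness by matrix. With the replicate block by library number these were 1630, 977 and 5, with 267 for stiffness by matrix in young cells. With no filter on low counts, stiffness by matrix gave 186 in young and 23 in aged cells, and cell age by matrix 111. DESeq2 gave 134, 12 and 28. Leaving out 1 library each gave, in young cells, 304 to 555 genes for stiffness, 179 to 346 for matrix, 335 to 529 for StiffA over SoftY and 47 to 211 for stiffness by matrix, in aged cells 596 to 1088 for matrix and 280 to 516 for StiffA over SoftY, and 3 to 33 for cell age by matrix. With no filter on low counts, edgeR called Lmnb1 for age in culture (-0.32, adjusted p = 0.0486). It called Lmnb1 for stiffness in young cells (0.68, 0.00266) and for matrix in aged cells (-0.57, 0.00867). Syne2 was called in young cells for matrix (-0.45, 0.0165) and StiffA over SoftY (-0.60, 0.0222). With only the groups compared, aged cells gave Syne2 for matrix (-0.30, 0.0408), and Lmna (0.21, 0.0434) and Syne2 (-0.43, 0.0282) for StiffA over SoftY. Under the replicate block by title number, Lmnb1 was called for stiffness in young cells (0.76, adjusted p = 0.0103) and for matrix in aged cells (-0.64, 0.0165), and Syne2 for matrix (-0.49, 0.0109) and StiffA over SoftY (-0.69, 0.00827) in young cells. Under the block by library number, members called beyond those of the main fit were Lmna (0.18, adjusted p = 0.0486) and Lmnb1 (0.61, 0.0437) for stiffness, Syne2 for matrix (-0.44, 0.0127) and StiffA over SoftY (-0.58, 0.0147) and Lmna for stiffness by matrix (-0.42, 0.0356) in young cells, and Lmnb1 (-0.63, 0.0144) and Syne2 (-0.30, 0.0389) for matrix and Lmna for StiffA over SoftY (0.22, 0.0489) in aged cells. Whether the numbers pair the samples is not stated. Deviations of same-numbered cultured libraries correlated above 0.1 in 10 of 15 young and 11 of 18 aged pairs by replicate number. By library number this was so in 13 of 15 young pairs (lowest -0.02, median 0.22) and 11 of 18 aged pairs. Not every pair correlated above 0.1, and the main fits are unblocked, but this does not show that the samples are unpaired. The block by library number was not run across cell ages, where no number is shared, and a fit of only the groups compared equals the main one where all groups enter. DESeq2 gave no adjusted p for 5 members (young) and 3 (aged) in stiffness by matrix and for 1 in cell age by matrix. Depths that leave members as few as 10 counts in a library limit the size of difference that could be called.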

Other observations

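Chromatin proteins beside Hmgb2 did not share one direction in fresh ageing. Of 7 high mobility group (Hmgb and the separate Hmga family) and heterochromatin (Cbx) genes, 4 fell and 2 rose with age. Cbx5 and Cbx3, which encode heterochromatin proteins of the HP1 family, fell by 0.88 ± 0.09 and 1.58 ± 0.16 on the log2 scale, and Hmgb1 fell by 0.63 ± 0.07 (adjusted p = 8.3e-06), while Hmga2, an architectural protein, rose by 1.21 ± 0.09 (adjusted p = 1.41e-07, edgeR). In culture all 7 fell in young cells, and 5 fell and 2 rose in aged cells. Hmga1 fell by 4.55 ± 0.10 in young and by 5.90 ± 0.10 in aged cells.

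Genes of the senescence and arrest list moved beside the B-type lamins in fresh cells, not all in one direction. The list also holds Ccnd1, a cyclin that drives the cell cycle and not an inhibitor of it. Cdkn1a, the cell cycle inhibitor p21, rose by 1.16 ± 0.08 with age (adjusted p = 7.63e-08), and Ccnd1 by 0.57 ± 0.07, while Cdkn1b, the inhibitor p27, fell by 1.70 ± 0.20 (adjusted p = 1.44e-05). With culture Cdkn1a rose by 1.59 ± 0.09 in young cells, and Ccnd1 fell by 0.73 ± 0.07 in young and by 0.96 ± 0.07 in aged cells.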
